A study of Mus musculus with 16 samples.

Results

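The levels of 10 genes of growth restraint and nutrient handling were followed in N25/2 cells, an immortalized line of embryonic mouse hypothalamic cells, after culture without amino acids. They comprise targets of the FOXO transcription factors, genes linked to the non-dividing state and 3 alpha-arrestin genes. The members are Ccng2, Hbp1, Txnip, Arrdc3, Arrdc4, Irs2, Pik3ip1, Klf15, Bcl6 and Cited2, 10 of the 19938 genes that carried 1 symbol in the array annotation. Each had a single row among the rows with 1 symbol, so none of them had to be chosen among several such rows. Rows with several symbols or none were not searched for them. They were picked with their levels and their deprived minus control differences on these same arrays in view, so both are given below as a description without a test.

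Deprived cells were kept in medium lacking amino acids and control cells in medium containing them, for 1, 2, 3, 5 or 16 h. There were 4 deprived and 4 control arrays at 5 h, and 1 deprived and 1 control array at each other time, 16 in all, so the differences at 1, 2, 3 and 16 h have no replicate check. The cells were a single line, not primary neurons, and were grown in medium with fetal bovine serum before treatment. Whether the 4 arrays of a 5 h group stem from separate cultures is not given, so their spread, and any p resting on it, may be technical. All levels are the deposited log2 values of whole-transcript arrays, and all differences are deprived minus control on that scale. Precision is limited by how few arrays there were.

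FOXO factors switch on genes of cell cycle arrest, stress resistance and fasting metabolism. Insulin and growth factors hold them back: signalling through PI3K and the kinase AKT marks them for export from the nucleus. Alpha-arrestins are adaptor proteins that bring ubiquitin ligases to membrane proteins such as receptors and transporters. Txnip and Arrdc4 limit glucose uptake and are known targets of the glucose-sensing factor MondoA (gene Mlxip) and its partner Mlx.

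The array medians were 7.02 to 7.12. Both 5 h arrays numbered 4 stood apart from the others: the deviations from the group means correlated between the deprived and control arrays of that number with 0.896 over all genes, against 0.354 to 0.584 for numbers 1 to 3. Levels of different genes come from different probes and can be set against each other only roughly. Of 8 neuronal marker genes, Stmn2 (mean log2 level 12.25) and Map2 (9.54) lay above the median gene level of 7.47 and the other 6 below it, among them Rbfox3 (6.47) and Tubb3 (5.95). Of 9 hypothalamic markers 6 lay below that level, Otp was highest at 8.23, and Pomc (6.55) and Pmch (5.99) were low. All 6 mesenchymal markers lay above it. Vim was at 13.70, Fn1 at 13.47 and Col1a1 at 12.03, but Col1a2 (8.0), Pdgfra (7.89) and Col3a1 (7.58) lay only slightly above. Below it lay 4 of 5 astrocyte markers, 4 of 5 oligodendrocyte, 5 of 6 microglial and all 5 endothelial markers. The astrocyte marker above it, Slc1a3, was at 11.74. The mean of the mesenchymal list at 5 h was 10.33 to 10.56 on deprived arrays and 10.44 to 10.89 on control arrays, and none of the 44 marker genes passed the test at 5 h. The part of cell makeup in the results below was not tested.

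The promoters of 3 of the genes whose levels differed are shown, from RefSeq on build GRCm38.p6, to place the sequence letters beside the values. Each is the 300 bases from 250 before to 50 after the gene's start, written 5′ to 3′ along the gene. Hbp1 lies at chr12:31950196-31950495 on the minus strand, Txnip at chr3:96557707-96558006 on the plus strand and Arrdc4 at chr7:68749189-68749488 on the minus strand. Capitals mark a FOXO element (GTAAACA), an E-box (CACGTG) or a carbohydrate response element, searched as CACGNG, any 5 bases and CACGNG again, the kind of element that MondoA binds.
Hbp1: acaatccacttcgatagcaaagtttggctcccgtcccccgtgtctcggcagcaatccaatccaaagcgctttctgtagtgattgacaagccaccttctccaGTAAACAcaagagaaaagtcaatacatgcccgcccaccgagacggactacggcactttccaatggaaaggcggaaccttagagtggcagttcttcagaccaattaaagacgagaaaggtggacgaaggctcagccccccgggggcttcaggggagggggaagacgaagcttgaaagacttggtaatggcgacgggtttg
Txnip: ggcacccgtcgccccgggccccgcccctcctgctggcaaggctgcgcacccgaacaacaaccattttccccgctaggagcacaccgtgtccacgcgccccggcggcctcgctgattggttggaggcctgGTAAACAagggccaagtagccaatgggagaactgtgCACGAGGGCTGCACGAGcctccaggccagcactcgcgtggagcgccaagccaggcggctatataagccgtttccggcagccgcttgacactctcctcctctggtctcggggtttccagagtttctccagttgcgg
Arrdc4: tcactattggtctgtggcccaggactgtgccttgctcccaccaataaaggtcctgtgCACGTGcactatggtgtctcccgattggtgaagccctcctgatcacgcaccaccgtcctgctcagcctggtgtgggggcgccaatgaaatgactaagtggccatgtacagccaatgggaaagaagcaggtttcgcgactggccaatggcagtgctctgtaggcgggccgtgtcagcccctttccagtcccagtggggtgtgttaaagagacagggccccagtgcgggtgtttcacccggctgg

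Both strands of the promoter windows of all 10 genes, 13 windows in all, were searched. A gene was counted if any of its windows held a match, whereas the shares given beside are of windows, so the units differ. The FOXO element was found in the Hbp1 window (bases 102 to 108 of the sequence) and the Txnip window (bases 130 to 136), 2 of the 10 genes, and in 3.65% of all 32851 mouse promoter windows. The carbohydrate response element was found in the Txnip window (bases 166 to 182) and in 0.0487% of all windows, but its spelling was chosen after the Txnip promoter had been read. The E-box, whose letters can fall inside that element, was found for Arrdc4, Irs2, Klf15, Bcl6 and Cited2 and in 7.15% of all windows. The amino acid response element TGATGNAA was found in none of the 10 genes' windows, against 3.97% of all windows. The CCAAT box, a common promoter element, was found for Hbp1, Txnip, Arrdc3, Arrdc4, Irs2 and Klf15, 6 of the 10 genes, and in 37.4% of all windows. It is not marked by capitals above. Ccng2 and Arrdc3, whose levels also differed and whose promoters are not shown, had no GTAAACA, E-box or carbohydrate response element in their windows. GTAAACA was the only spelling of a FOXO element searched, so a FOXO site spelled otherwise would have been missed in any window. A match is only a run of letters, and no binding was measured.

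The 10 genes did not all differ one way. Hbp1 and Ccng2 were higher in deprived cells at all 5 times, Txnip and Arrdc4 were higher from 2 h on, with their largest differences at 16 h, and Arrdc3 was lower at all 5 times. Irs2, Klf15, Bcl6 and Cited2 differed little at 5 h, and Pik3ip1 was higher up to 5 h and lower at 16 h. At 1, 2, 3, 5 and 16 h the median difference of the 10 genes was 0.09, 0.33, 0.21, 0.27 and 0.21, while the median of all genes lay between -0.04 and 0.02.

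**Figure D1:**
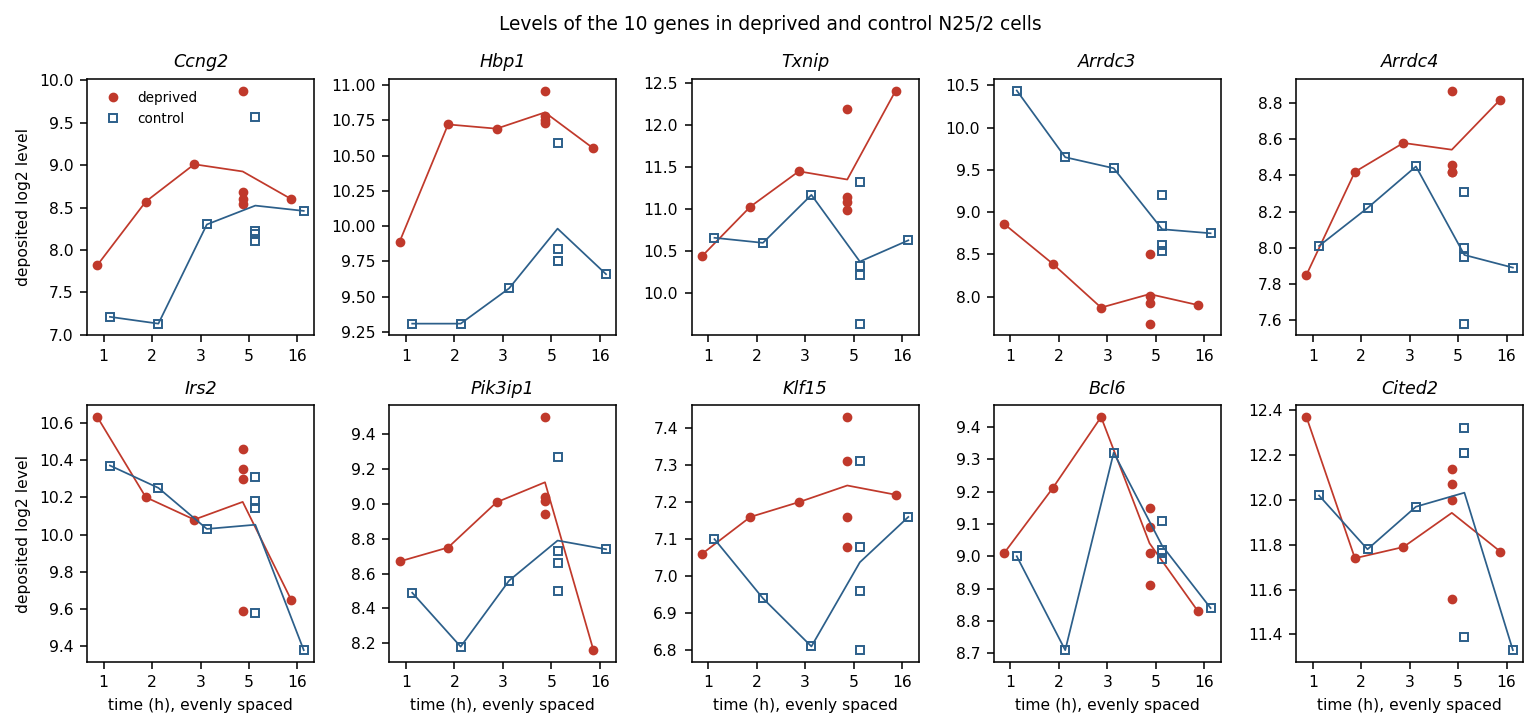
Deposited log2 level of each of the 10 genes against time in hours (evenly spaced axis), with filled circles for deprived and open squares for control arrays; lines join the single arrays and the 5 h means of 4 arrays. Hbp1 runs above its control and Arrdc3 below it at every time, and the top point in both 5 h groups of Ccng2 is the array numbered 4.

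Hbp1 codes for an HMG-box repressor that restrains entry into the cell division cycle. At 5 h its log2 level was 10.73, 10.78, 10.75 and 10.96 on the deprived arrays, against 9.84, 9.75, 9.75 and 10.59 on the control arrays. All deprived arrays lay above all control arrays, and control array 4 stood well above the other controls. The means were 10.80 ± 0.11 in deprived and 9.98 ± 0.41 in control cells (SD, n = 4 each), a difference of 0.82 or 1.77-fold, which was 0.97 without both arrays numbered 4. The difference was already 0.58 at 1 h (9.89 in deprived and 9.31 in control cells) and was largest at 2 h, at 1.41 (10.72 in deprived and 9.31 in control cells). It was 1.13 at 3 h and 0.89 at 16 h. From 2 h on the deprived level stayed between 10.55 and 10.80, so the later narrowing went with a higher control level at 5 h.

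Ccng2 codes for cyclin G2, an unusual cyclin associated with cell cycle arrest. Its level at 5 h was 8.54, 8.68, 8.60 and 9.88 on the deprived arrays, against 8.22, 8.19, 8.11 and 9.57 on the control arrays. The groups overlapped only through control array 4, which lay above deprived arrays 1 to 3. Within same-numbered arrays the differences were 0.31, 0.49, 0.49 and 0.31, all higher in deprived cells. The means were 8.92 ± 0.64 in deprived and 8.52 ± 0.70 in control cells (SD, n = 4 each), a difference of 0.40. It was 0.08 when deprived array 4 was left out, 0.75 when control array 4 was, and 0.43 when both were. It was 0.26 when control array 3 was left out.

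The time course of Ccng2 was early. Its level was 7.82 in deprived and 7.21 in control cells at 1 h, a difference of 0.61. At 2 h it was 8.57 in deprived and 7.13 in control cells, a difference of 1.45 or 2.73-fold, the largest difference among the 10 genes at that time. The difference was then 0.71 at 3 h and 0.14 at 16 h. The control level itself was not constant, with 7.21 at 1 h, 8.30 at 3 h and 8.46 at 16 h, so control cells at 16 h lay near deprived cells of 2 h.

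Of the 10 genes, 2 were higher in deprived cells at all 5 times (Ccng2 and Hbp1) and 1 was lower (Arrdc3). Among all genes 6.05% were higher and 6.71% lower at all 5 times. At 5 h the groups did not overlap for 3 members, Hbp1 and Arrdc4 with deprived arrays above (5.15% of all genes) and Arrdc3 with deprived arrays below (5.38% of all genes). Differences of at least 0.5 upward were seen for 2 members after 1 h (0.226% of all genes), 4 after 2 h (0.787%), 2 after 3 h (0.843%), 3 after 5 h (2.01%) and 3 after 16 h (9.36%). Downward, Arrdc3 was the 1 member to reach that size after 1 h (0.557% of all genes), 2 h (0.978%), 3 h (1.1%) and 5 h (1.33%), and 2 members did at 16 h (8.99%), Arrdc3 and Pik3ip1. Since the genes were chosen on these differences, the shares of all genes are given only for scale.

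**Figure D2:**
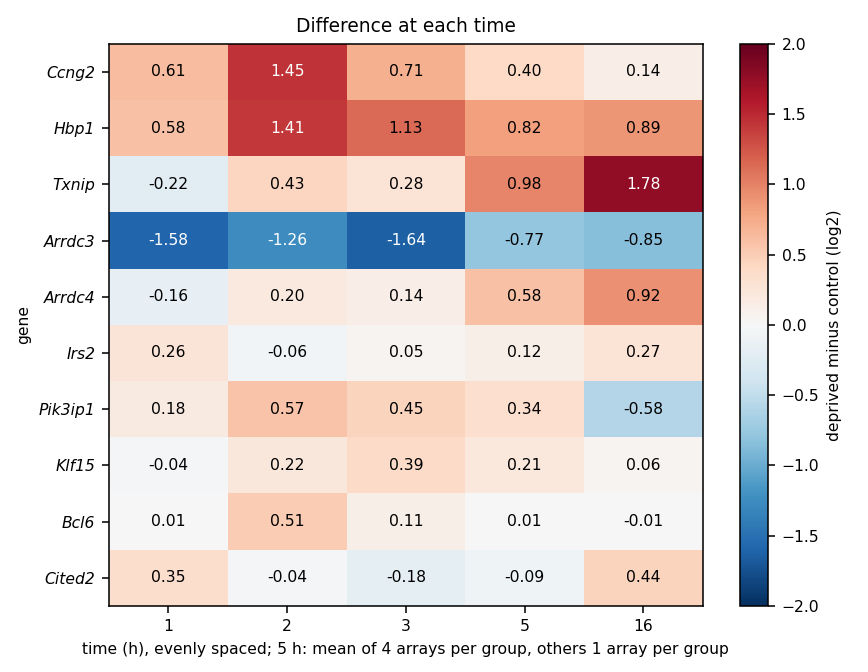
Deprived minus control difference in log2 units for each gene (rows) at each time in hours (columns), with the mean of 4 arrays per group at 5 h and 1 array per group at the other times; red is higher and blue lower in deprived cells. Ccng2 and Hbp1 peak at 2 h with 1.45 and 1.41, Txnip at 16 h with 1.78, and the Arrdc3 row is negative throughout.

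The 3 alpha-arrestin genes parted. Txnip codes for the thioredoxin-interacting protein, which also promotes removal of the glucose transporter Slc2a1 from the cell surface. At 5 h its log2 level was 10.99, 11.15, 11.08 and 12.19 on the deprived arrays, against 9.64, 10.22, 10.33 and 11.32 on the control arrays. Control array 4 lay above deprived arrays 1 to 3, and every deprived array lay above the control array of its own number. The means were 11.35 ± 0.57 in deprived and 10.38 ± 0.70 in control cells (SD, n = 4 each), a difference of 0.98 or 1.97-fold. It was 1.01 without both arrays numbered 4.

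Txnip differed late rather than early. It was at 10.44 in deprived and 10.66 in control cells at 1 h, a difference of -0.22. The difference was 0.43 at 2 h and 0.28 at 3 h. At 16 h Txnip was at 12.41 in deprived and 10.63 in control cells, a difference of 1.78 or 3.42-fold, the largest upward difference among the 10 genes at any time. Over the deprived arrays the level at 16 h exceeded that at 1 h by 1.97, whereas over the control arrays it differed by -0.03.

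Arrdc4, the closest of the other alpha-arrestins to Txnip in its known role in glucose uptake, had the same order of differences at a smaller size. At 5 h its level was 8.46, 8.42, 8.42 and 8.87 on the deprived arrays, against 7.58, 7.95, 8.0 and 8.31 on the control arrays. The groups did not overlap, with deprived array 4 the highest of all. The means were 8.54 ± 0.22 in deprived and 7.96 ± 0.30 in control cells (SD, n = 4 each), a difference of 0.58. At 1, 2, 3 and 16 h the differences were -0.16, 0.20, 0.14 and 0.92.

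Arrdc3, an adaptor known for acting on beta-adrenergic receptors, was lower throughout. At 1 h it was at 8.86 in deprived and 10.44 in control cells, a difference of -1.58, and at 3 h it was at 7.87 in deprived and 9.52 in control cells, a difference of -1.64 (3.13-fold higher in control cells). At 5 h its level was 7.93, 7.68, 8.01 and 8.50 on the deprived arrays, against 8.84, 8.61, 8.54 and 9.20 on the control arrays. All deprived arrays lay below all control arrays, although deprived array 4 and control array 3 were close. The means were 8.03 ± 0.34 in deprived and 8.80 ± 0.30 in control cells (SD, n = 4 each), a difference of -0.77, and the difference at 16 h was -0.85.

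The Arrdc3 level also declined over time in control cells. At 1, 2, 3, 5 and 16 h it was 10.44, 9.65, 9.52, 8.80 and 8.75 there. The deprived level at 1 h, 8.86, therefore lay within the 5 h control range of 8.54 to 9.20. No other member had a wider range over time in control cells than the 1.69 of Arrdc3.

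Of the other alpha-arrestin genes on the array, none passed the test at 5 h. Txnip, Arrdc3 and Arrdc4 are given without a test, so no contrast with them is drawn. Arrdc2 differed by 0.04 (adjusted p = 1.0), Arrdc5 by 0.07 (adjusted p = 1.0) and Arrdc1 by -0.15 (adjusted p = 1.0) at 5 h in limma. At 16 h Arrdc1 differed by -0.63, Arrdc2 by 0.09 and Arrdc5 by -0.15, from 1 array per group. The sign for Arrdc1 turned without control array 4 (0.06), that for Arrdc2 without deprived array 4 (-0.02) and that for Arrdc5 without deprived array 3 or control array 4 (-0.01 each). Arrdc5 had a low level on all 5 h arrays, with means of 5.61 in deprived and 5.54 in control cells.

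**Figure D3:**
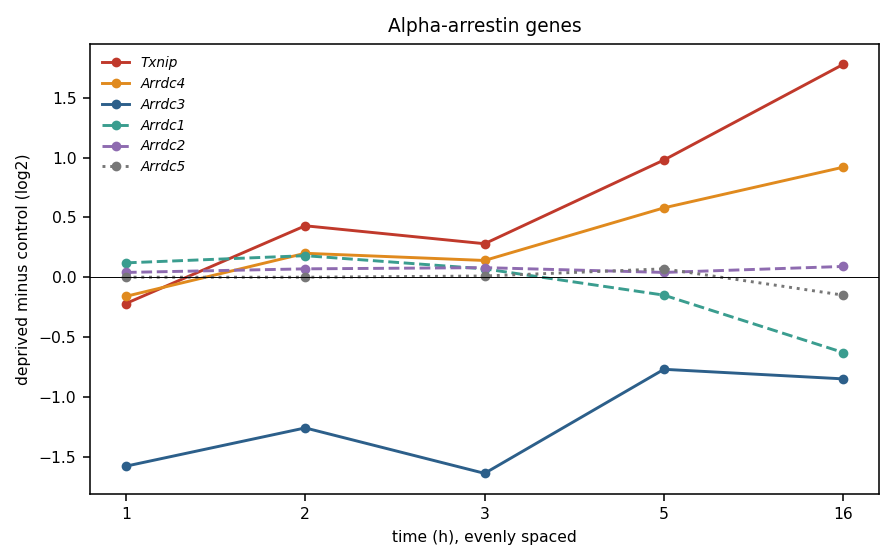
Deprived minus control difference in log2 units at each time in hours (evenly spaced axis) for the 6 alpha-arrestin genes measured. Txnip and Arrdc4 climb to 1.78 and 0.92 at 16 h, Arrdc3 lies at -0.77 or lower at all 5 times, and Arrdc2 and Arrdc5 stay within 0.15 of 0.

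Insulin and PI3K signalling is the field of 2 of the genes. Irs2 codes for an adaptor of the insulin receptor and is a FOXO target in liver. At 5 h its level was 10.35, 10.30, 10.46 and 9.59 on the deprived arrays, against 10.14, 10.18, 10.31 and 9.58 on the control arrays. The groups overlapped, and array 4 was lowest in both. The difference was 0.12 (10.17 ± 0.40 in deprived and 10.05 ± 0.32 in control cells; SD, n = 4 each), -0.04 without control array 4, 0.03 without deprived array 3, 0.06 without deprived array 1, 0.08 without deprived array 2, 0.21 without control array 3 and 0.32 without deprived array 4. Irs2 was 0.98 lower at 16 h than at 1 h in deprived cells and 0.99 lower in control cells, so both media ended with declines of nearly the same size.

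Pik3ip1 codes for a membrane protein that inhibits PI3K. At 5 h its level was 9.02, 9.04, 8.94 and 9.50 on the deprived arrays, against 8.66, 8.73, 8.50 and 9.27 on the control arrays. Only control array 4 reached into the deprived range, and the same-number differences were 0.36, 0.31, 0.44 and 0.23. The difference of the means was 0.34 (9.13 ± 0.26 in deprived and 8.79 ± 0.34 in control cells; SD, n = 4 each), and 0.21 without deprived array 4. At 2 h Pik3ip1 differed by 0.57 and at 3 h by 0.45. At 16 h it was at 8.16 in deprived and 8.74 in control cells, a difference of -0.58.

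The transcription regulators among the 10 genes differed by 0.21 or less at 5 h. Cited2, which codes for a partner of the coactivators CBP and p300 that restrains hypoxia signalling, was at 12.14, 12.07, 12 and 11.56 on the 5 h deprived arrays against 12.32, 12.21, 12.21 and 11.39 on the control arrays. The groups overlapped, with array 4 lowest in both. The difference was -0.09, and it was 0.04 without deprived array 4, 0.01 without control array 1 and -0.30 without control array 4. At 1 h and 16 h Cited2 differed by 0.35 and 0.44.

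Bcl6, a transcriptional repressor that FOXO factors induce in lymphocytes, had 9.09, 9.01, 8.91 and 9.15 on the 5 h deprived arrays against 9.11, 9.01, 8.99 and 9.02 on the control arrays. The groups overlapped almost fully and the difference was 0.01, with -0.03 to 0.05 when single arrays were left out. Its one larger difference was 0.51 at 2 h, when it was at 9.21 in deprived and 8.71 in control cells. The 2 h control value was the lowest of all control arrays for this gene.

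Klf15, a factor that drives amino acid breakdown in muscle and liver in fasting, was at 7.43, 7.31, 7.16 and 7.08 on the 5 h deprived arrays, against 6.96, 7.08, 7.31 and 6.80 on the control arrays. The groups overlapped and the difference was 0.21 (7.24 ± 0.15 in deprived and 7.04 ± 0.22 in control cells; SD, n = 4 each). It was 0.12 when control array 4 was left out. Same-numbered arrays differed by 0.47, 0.22, -0.16 and 0.29. At 1, 2, 3 and 16 h, from 1 array per group, the Klf15 differences were -0.04, 0.22, 0.39 and 0.06. All 16 Klf15 values lay between 6.80 and 7.43, below the median gene level of 7.47.

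**Figure D4:**
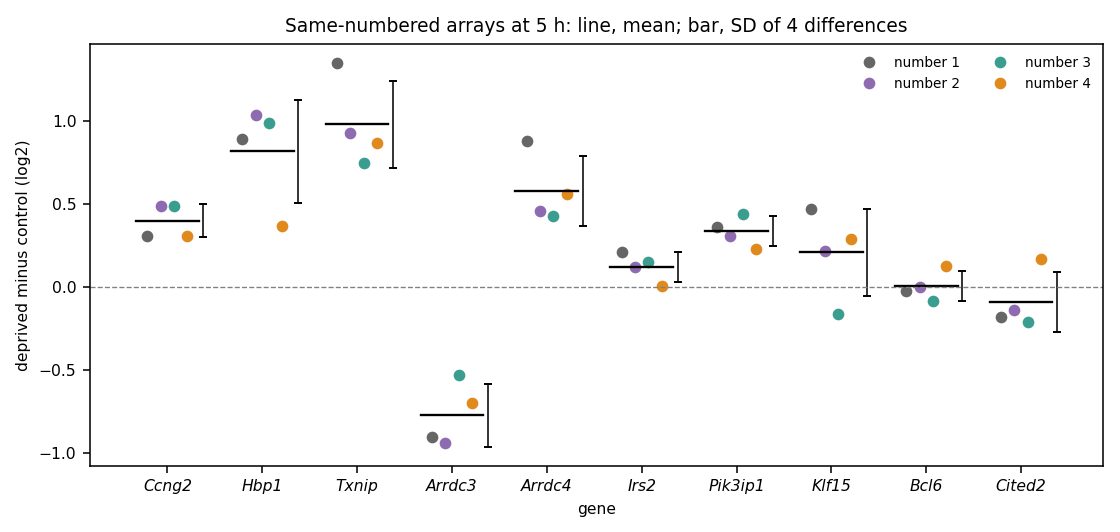
Deprived minus control difference in log2 units at 5 h between arrays of the same number (1 to 4, coloured points) for each gene, with the mean as a line and the SD of the 4 differences as a bar. All 4 points lie above 0 for Ccng2, Hbp1, Txnip, Arrdc4, Irs2 and Pik3ip1, all 4 lie below 0 for Arrdc3, and the points of Klf15, Bcl6 and Cited2 lie on both sides.

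Among same-numbered arrays, 6 of the 10 genes were higher in deprived cells in all 4 pairs (15.3% of all genes) and Arrdc3 was lower in all 4 (19.3% of all genes). For Ccng2 the SD of these 4 differences was 0.10, against 0.64 and 0.70 within the deprived and control groups. For Irs2 it was 0.09, against 0.40 and 0.32. Array 4 was the highest in both groups for Ccng2 and the lowest in both for Irs2.

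Genes outside the 10 were read from the limma fit over all 19938 genes at 5 h, in which 820 genes (4.11%) passed an adjusted p of 0.05, 481 higher (2.41%) and 339 lower (1.7%) in deprived cells. With the replicate number as a block 3632 passed (18.2%; 8.22% higher and 10% lower). Without both arrays numbered 4, 2695 passed (13.5%; 6.34% higher and 7.17% lower). After a further quantile normalization 1229 passed (6.16%; 3.39% higher and 2.77% lower). Of 35 measured other FOXO target genes, 4 rose and 1 fell, with a list median of 0.04 against -0.01 for all genes. The list was not split by whether FOXO factors raise or lower a gene. Some of its genes had low levels, such as Fasl (5.67) and Pdk4 (5.66) on the deprived arrays. Its counts and median therefore do not measure FOXO activity. Gadd45a, a growth arrest and DNA damage gene that Atf4 also induces, rose by 1.72 (SE 0.15; adjusted p = 0.000303, limma). Klf4, which codes for a growth-restraining factor, rose by 1.42 (SE 0.21; adjusted p = 0.00509, limma). Trp53inp1, a stress gene that also promotes autophagy, rose by 0.93 (SE 0.07), and Gabarapl1, an autophagosome gene, by 0.89 (SE 0.09). Sesn1, a sestrin gene, changed by -0.73 (SE 0.16), and its call was lost without any one of deprived arrays 1, 2 and 3 and control arrays 1, 2 and 3 (adjusted p = 0.0736 to 0.132, limma) and with arrays centred on their medians (0.0585; over all settings 3.18e-05 to 0.132). With the block, 13 of these FOXO targets were higher and 4 lower. Without both arrays numbered 4, 12 were higher and 3 lower, and without control array 4 alone, 9 were higher and 1 lower. More of all genes also passed without control array 4 alone, 1066 against 820 in the fit of all 5 h arrays.

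The well-known FOXO targets Cdkn1b and Sesn3 did not pass in the unblocked fit of all 5 h arrays. Cdkn1b, which codes for the cell cycle inhibitor p27, differed by 0.25 (SE 0.07; adjusted p = 0.11 in limma, 0.0184 with the block, 0.0325 after a further quantile normalization, 0.025 without both arrays numbered 4, and 0.0184 to 0.302 over all settings). Sesn3 differed by -0.55 (SE 0.24; adjusted p = 0.358 in limma, 0.000153 with the block, and 0.000153 to 0.68 over all settings), passed when deprived array 4 (0.0447) or both arrays numbered 4 (0.000274) were left out, and was at -2.04 at 16 h from 1 array per group. Of the FOXO genes themselves, Foxo1 differed by -0.25 (adjusted p = 0.184 in limma, 0.0158 with the block, 0.0244 after a further quantile normalization, 0.0195 without both arrays numbered 4, and 0.0158 to 0.455 over all settings). Foxo3 differed by 0.17, Foxo4 by 0.08 and Foxo6 by -0.15 (adjusted p = 0.502, 1.0 and 0.628 in limma), and the Foxo4 value was -0.05 without deprived array 4.

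Of 34 measured cell cycle exit genes 3 rose and 2 fell (median 0.03). Besides Klf4 and Trp53inp1, Rb1, the retinoblastoma gene, rose by 0.42 (SE 0.08), and Tob1, an antiproliferative gene, fell by 0.55 (SE 0.10). The other fall was that of Mxd3, which codes for a repressor of the MYC network (-0.57, SE 0.12; adjusted p = 0.0283 in limma, and 0.000557 to 0.102 over all settings) and was named after its values were seen. The Rb1 call was lost without deprived array 1, 2 or 3 or control array 2 (adjusted p = 0.052 to 0.0627, limma; over all settings 0.00105 to 0.0627). The Tob1 call was lost without deprived array 1, 2 or 3 or control array 1 or 2 (0.0583 to 0.0762; over all settings 0.000766 to 0.0762). Ccng1, the relative of Ccng2, differed by -0.28 (adjusted p = 0.281 in limma, 0.00843 with the block, and 0.00843 to 0.559 over all settings). The count of 5 called genes was 2 without deprived array 1, 2 or 3 or control array 2, 3 without control array 1, and 8 without deprived or control array 4. The count over all genes also moved, from 820 in the main fit to 1066 without control array 4. It was also above 820 without deprived array 4, and below it without any other single array. With the block 13 of the list were higher (8.22% of all genes) and 8 lower (10%). Without both arrays numbered 4, 13 were higher (6.34% of all genes) and 6 lower (7.17%).

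Of 34 measured cell division genes 1 rose and 2 fell, with a median of -0.08. Ccne1, cyclin E1, fell by 0.98 (SE 0.11; adjusted p = 0.00123, limma), with -0.22 at 1 h and -0.86 at 16 h. Cdt1, a replication licensing gene, rose by 0.68 (SE 0.13) and Rrm2, a ribonucleotide reductase gene, fell by 0.35 (SE 0.08). The Cdt1 call was lost without deprived array 1 or 2 or control array 1, 2 or 3 (adjusted p = 0.0533 to 0.0669, limma; over all settings 2.84e-05 to 0.0669). The Rrm2 call was lost with arrays centred on their medians (0.0646) and without any single 5 h array except control array 3 (0.0561 to 0.139; over all settings 0.00299 to 0.139). The count of 3 was 1 without deprived array 1 or 2 or control array 1 or 2. With the block 2 were higher (8.22% of all genes) and 7 lower (10%). Without both arrays numbered 4, 2 were higher (6.34% of all genes) and 5 lower (7.17%).

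A list of 24 genes covered the arrestin fold, thioredoxin, glucose transport, ubiquitin ligases, and Mlx with its partners. Of these genes 1 rose and 1 fell, with a median of 0.00. Slc2a1 fell by 0.69 (SE 0.12; adjusted p = 0.012, limma) and differed by -1.10 at 16 h, when Txnip differed by 1.78. Vps26a, a retromer gene with an arrestin fold, rose by 0.42 (SE 0.09), and its call was lost without deprived array 1, 2 or 3 or control array 2 or 3 (adjusted p = 0.0712 to 0.111, limma; over all settings 0.00188 to 0.111), which left 1 called gene. Mlxip differed by -0.13 (adjusted p = 0.972, limma) and by 0.00 without deprived array 4. Mlx differed by -0.29 (adjusted p = 0.485 in limma, 0.00695 with the block, and 0.00695 to 0.877 over all settings). With the block 2 of the list were higher (8.22% of all genes) and 3 lower (10%). Without both arrays numbered 4, 3 were higher (6.34% of all genes) and 2 lower (7.17%).

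Of 33 measured insulin and PI3K signalling genes 1 rose and 1 fell, with a median of -0.01. Gsk3b, a kinase that AKT inhibits, rose by 0.42 (SE 0.07) and Pik3r3, a regulatory subunit of PI3K, fell by 0.46 (SE 0.08). Without deprived array 1 or control array 2 neither passed (adjusted p = 0.0532 in both fits for Gsk3b, and 0.0649 and 0.0609 for Pik3r3, limma; over all settings 0.000609 to 0.0532 and 0.000965 to 0.0649), so the count of called genes was 0, and without control array 4 it was 4. The count over all genes was 820 in the main fit and 1066 without control array 4. It was below 820 without deprived array 1 or control array 2. Irs1, the relative of Irs2, differed by -0.58 (SE 0.36; adjusted p = 0.633 in limma, 0.000699 with the block, and 0.000601 to 0.919 over all settings). The Irs1 value was -0.32 without deprived array 4, -0.94 without control array 4 and -0.37 as the mean of its rows. At 16 h Irs1 differed by -1.64 and Irs2 by 0.27. Irs4 differed by -0.02 (adjusted p = 1.0, limma), with values of 0.03 to 0.10 without deprived array 3 or 4 or control array 3. With the block 6 were higher (8.22% of all genes) and 6 lower (10%). Without both arrays numbered 4, 5 were higher (6.34% of all genes) and 5 lower (7.17%).

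Relatives of Klf15, Bcl6 and Cited2 held 3 rises and no fall among 29 measured genes (median 0.01). Besides Klf4, Klf9 rose by 0.82 (SE 0.11; adjusted p = 0.00421, limma) and Klf11 by 0.64 (SE 0.10), both transcription factors of the family of Klf15. Bcl6b differed by 0.07, Cited1 by 0.13 and Cited4 by -0.05 (adjusted p = 0.974, 0.813 and 1.0, limma), and the Cited4 value was 0.06 when control array 3 was left out and 0.01 when deprived array 4 was. Cited1 was at 0.05 without control array 4, and Bcl6b at 0.01 without control array 2. With the block 5 were higher (8.22% of all genes) and 2 lower (10%). Without both arrays numbered 4, 4 were higher (6.34% of all genes) and 2 lower (7.17%). Klf15 is also known as a target of glucocorticoids. Of 21 other glucocorticoid response genes 3 rose and none fell (median -0.05): Tsc22d3 by 1.08 (SE 0.14; adjusted p = 0.0021, limma), Angptl4 by 0.95 (SE 0.14) and Klf9. In the blocked fit 4 were higher (8.22% of all genes) and 5 lower (10%). The list counts were the same when both arrays numbered 4 were left out (6.34% and 7.17% of all genes).

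**Figure D5:**
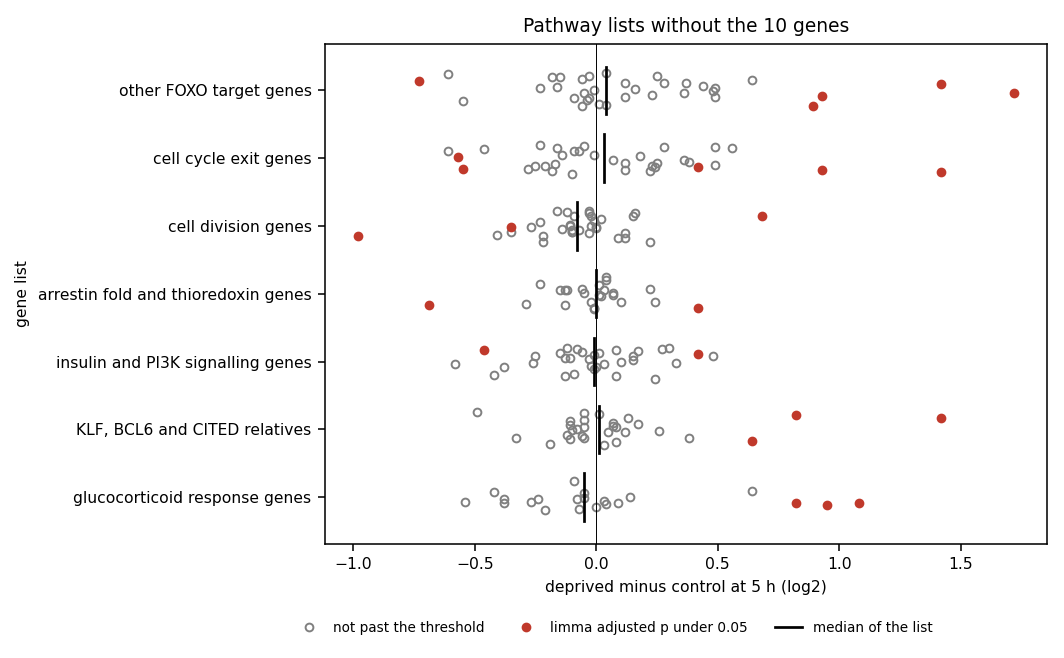
Deprived minus control difference in log2 units at 5 h (horizontal axis) for every measured gene of 7 pathway lists (rows) that leave out the 10 genes; filled points passed an adjusted p of 0.05 in limma and vertical bars are list medians. The list medians lie between -0.08 and 0.04, and Gadd45a at 1.72 is the point farthest to the right.

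For each of the 10 genes, the gene with the closest differences over the 5 times was found by the mean absolute distance in log2 units. Hbp1 was closest to Crebrf, a stress regulator gene (distance 0.19; 0.23, 1.10, 0.86, 0.83 and 0.89 at 1, 2, 3, 5 and 16 h). Ccng2 was closest to Gpr146, a receptor gene (0.22). Arrdc3 was closest to Phlda1, a growth-factor-induced gene (0.39; -1.80, -1.06, -1.32, -1.41 and -0.30). Of the 10 distances that of Arrdc3 was the largest. Txnip was closest to Rhbdd1 (0.06), Arrdc4 to Fam50a (0.04) and Pik3ip1 to Cpeb2 (0.07). Irs2, Klf15, Bcl6 and Cited2, with small differences, were closest to Dhx58 (0.03), Tnfsf13b (0.03), Ncoa7 (0.04) and Olfr1297 (0.05).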

How the data were processed

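Biotinylated sense-strand cDNA made from 250 ng of total RNA per sample was hybridised to arrays of the whole-transcript type (per the labels' protocols). Deposited values (35556 rows, 16 arrays) are on the log2 scale and come from RMA, which summarises and normalizes the probes of each row. The submitters' processing notes list RMA and limma with no version. RMA settings are not given in the sources used here. Of the rows, 21789 carry 1 gene symbol in the platform annotation, 1621 carry several and 12146 none, and only the first were used, with symbols updated through Entrez identifiers (21698 matched). Where a gene had more than 1 row (999 genes), the row with the highest mean was kept, which gave 19938 genes. At 5 h the 4 deprived and 4 control arrays were tested by limma version 3.58.1 (R version 4.3.3), with moderated variances, a two-sided test and Benjamini-Hochberg adjustment over all genes at 0.05. The script was tested on simulated data. At other times single arrays were subtracted. Python 3.11.15, numpy 2.4.6, pandas 2.3.3 and matplotlib 3.10.9 did the rest. Promoter sequences are from RefSeq (GRCm38.p6), and all 10 genes matched.

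The 10 genes, the 7 pathway lists, the marker lists and the tests were chosen with earlier results of these data known. Named genes were the 10, up to 4 called genes of each list with the smallest adjusted p, 18 relatives and regulators, and the nearest gene to each of the 10. Some listed genes are not analysed here. Both 5 h groups carry numbers 1 to 4 without a stated reason. Deviations of same-numbered arrays correlated with 0.354, 0.584, 0.467 and 0.896. Among numbers 1 to 3 alone the values were 0.193, -0.00305 and -0.2, so the link between same numbers rests mainly on number 4. The main limma fit did not pair the arrays. Same-number differences are given as a description, and the replicate block is an alternative fit. Alternatives were the replicate block, a further quantile normalization, median centring, genes above the median level, the mean of a gene's rows, a trended and robust variance prior, each 5 h array left out, and, added after the data were seen, both arrays numbered 4 left out.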

Additional observations from a re-analysis of the deposited data

Results flagged for a closer look

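Among 20 groups of 4 arrays (10 genes, deprived and control at 5 h), 6 held an array far from the other 3, each time number 4. This count is a description: chance gives about 1 in 20 for a single group, but these groups share the same 8 arrays, and array 4 stands apart over all genes. Ccng2 was at 9.88 on deprived array 4, against 8.54 to 8.68 on the other deprived arrays, and at 9.57 on control array 4, against 8.11 to 8.22. Hbp1 was at 10.59 on control array 4, against 9.75 to 9.84. Txnip was at 12.19 on deprived array 4, against 10.99 to 11.15, and Arrdc4 at 8.87, against 8.42 to 8.46. Cited2 was at 11.39 on control array 4, against 12.21 to 12.32.

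Pik3ip1 differed by -0.58 at 16 h, whereas its same-number differences at 5 h ran from 0.23 to 0.44. The 16 h value rests on 1 array per group, and the difference between the times was not tested.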

How the results depend on the processing

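The 820 called genes (4.11% of all genes) became 3632 (18.2%) with the replicate number as a block and 2695 (13.5%) without both arrays numbered 4. They became 382 to 1066 with single 5 h arrays left out. With the block the called genes numbered 17 of the other FOXO targets, 21 of cell cycle exit, 9 of cell division, 5 of the arrestin and thioredoxin list, 12 of insulin and PI3K signalling, 7 of the KLF, BCL6 and CITED relatives and 9 of the glucocorticoid genes. Without both arrays numbered 4 these counts were 15, 19, 7, 5, 10, 6 and 9. With a further quantile normalization, under which 1229 of all genes (6.16%) were called, they were 8 for FOXO targets, 9 for cell cycle exit and 4 for insulin and PI3K signalling. With single arrays left out the counts ran, in the same order of lists, from 4 to 10, 2 to 8, 1 to 3, 1 to 2, 0 to 4, 3 to 4, and stayed at 3. The cause was not tested. In the blocked fit Ccng1, Cdkn1b, Foxo1, Irs1, Mlx and Sesn3 also passed, as they did without both arrays numbered 4, and Cdkn1b and Foxo1 passed with the quantile normalization too. The median 5 h difference of the 10 genes ran from 0.24 to 0.32 with single arrays left out, and the 16 h median was 0.29 with arrays centred on their medians, where Bcl6 was at 0.08.

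Some genes that did not pass changed sign. Irs4 was at 0.01 with arrays centred on their medians. With single arrays left out, Arrdc1 ran from -0.38 to 0.06, Arrdc2 from -0.02 to 0.10, Arrdc5 from -0.01 to 0.15, Cited4 from -0.12 to 0.06, Foxo4 from -0.05 to 0.25, Irs4 from -0.14 to 0.10 and Mlxip from -0.28 to 0.00. Of 520 recomputed values of other named genes, 12 changed sign, 38 lost a call and 15 gained one. Without a change of sign, Irs1 ran from -0.94 to -0.32, Bcl6b from 0.01 to 0.12, Cited1 from 0.05 to 0.19, Foxo6 from -0.20 to -0.08, Mlx from -0.43 to -0.19 and Sesn3 from -0.77 to -0.36 with single arrays left out. The deposited values carry no mark of background, so how far background limits low genes such as Arrdc5 and Klf15 is unknown.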
